A study of Mus musculus with 12 samples.

Results

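The genes described here are the peroxisome proliferator-activated receptors Pparg and Ppard, the retinoid X receptors Rxra and Rxrb, the corepressor Ncor1, the p160 coactivators Ncoa1, Ncoa2 and Ncoa3, and the Mediator subunit Med1. They were chosen by symbol, and all 9 were found among the 12339 genes of the count table. The series compared transcript levels in peritoneal macrophages of wild type (WT) and meKO mice, fed chow or a high-fat diet (HFD). Each of the 4 groups of genotype and diet had 3 RNA-seq libraries. All mice, chow controls included, had received AAV8PCSK9 at 8 weeks of age, a vector used to take the LDL receptor away from liver cells; the chow controls thus carry it too. After 4 weeks the macrophages were elicited with thioglycolate and washed from the peritoneal cavity. Protein kinase C epsilon of myeloid cells is the subject named in the series title, so meKO is taken to be a knockout of its gene, Prkce, in the myeloid lineage. The Cre driver, and whether a library holds 1 mouse or several, are not given in the sources used here. Nothing states that libraries came from separate mice, so p-values measure the spread between these libraries.

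PPARs are nuclear receptors that bind fatty acids and their oxidised derivatives, and they act on DNA as heterodimers with a retinoid X receptor. Without ligand the pair holds corepressor complexes built on NCOR1 and its relative SMRT, and with ligand it exchanges them for p160 coactivators, histone acetyltransferases and Mediator, which MED1 ties to the receptor. In macrophages PPARγ is known for driving lipid uptake and storage genes and alternative activation, and PPARδ for sensing lipids from lipoprotein particles.

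In GRCm38, Pparg lies at chr6:115360951-115490399 and Ppard at chr17:28232700-28301474. Rxra lies at chr2:27676440-27762957 and Rxrb at chr17:34031812-34038399, all 4 receptor genes on the plus strand. Ncor1 is at chr11:62316426-62458541, Ncoa1 at chr12:4247362-4477182, Ncoa2 at chr1:13139105-13374083 and Med1 at chr11:98152154-98193293, all on the minus strand, and Ncoa3 is at chr2:165992636-166073242 on the plus strand. The promoters of the 3 receptor genes called for diet in the average over genotypes are printed here because their values had opposite signs. Each sequence is RefSeq's, from 250 bases before to 50 bases after an annotated start in GRCm38.p6, all on the plus strand. Capitals mark the nuclear receptor hexamer AGGTCA and the GC box GGGCGG on either strand. The 3 Pparg windows are chr6:115360894-115361193, chr6:115362099-115362398 and chr6:115421816-115422115. The Ppard window is chr17:28232504-28232803, and the 2 Rxra windows are chr2:27676951-27677250 and chr2:27709042-27709341.
Pparg start 1: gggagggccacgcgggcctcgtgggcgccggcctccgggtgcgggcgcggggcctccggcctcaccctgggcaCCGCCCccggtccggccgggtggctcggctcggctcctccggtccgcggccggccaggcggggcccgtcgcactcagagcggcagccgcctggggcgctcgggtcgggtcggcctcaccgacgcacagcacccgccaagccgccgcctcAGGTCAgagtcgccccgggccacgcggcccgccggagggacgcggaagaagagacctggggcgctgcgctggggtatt
Pparg start 2: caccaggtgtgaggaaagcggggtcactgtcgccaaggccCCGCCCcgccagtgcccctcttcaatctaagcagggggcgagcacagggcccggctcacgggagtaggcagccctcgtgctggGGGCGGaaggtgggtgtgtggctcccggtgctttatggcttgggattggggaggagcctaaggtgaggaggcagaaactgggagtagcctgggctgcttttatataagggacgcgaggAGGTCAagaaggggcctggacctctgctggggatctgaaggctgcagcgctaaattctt
Pparg start 3: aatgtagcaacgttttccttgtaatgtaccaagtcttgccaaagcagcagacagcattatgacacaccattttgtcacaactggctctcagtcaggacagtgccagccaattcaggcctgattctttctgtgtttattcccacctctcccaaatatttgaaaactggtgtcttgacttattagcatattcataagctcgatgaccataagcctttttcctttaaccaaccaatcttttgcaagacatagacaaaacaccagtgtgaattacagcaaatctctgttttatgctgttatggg
Ppard: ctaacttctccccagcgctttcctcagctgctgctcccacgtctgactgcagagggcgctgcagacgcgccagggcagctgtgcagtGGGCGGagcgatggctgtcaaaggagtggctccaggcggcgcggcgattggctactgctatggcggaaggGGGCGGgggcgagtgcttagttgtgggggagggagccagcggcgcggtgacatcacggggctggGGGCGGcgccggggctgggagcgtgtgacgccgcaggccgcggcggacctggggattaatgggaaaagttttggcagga
Rxra start 1: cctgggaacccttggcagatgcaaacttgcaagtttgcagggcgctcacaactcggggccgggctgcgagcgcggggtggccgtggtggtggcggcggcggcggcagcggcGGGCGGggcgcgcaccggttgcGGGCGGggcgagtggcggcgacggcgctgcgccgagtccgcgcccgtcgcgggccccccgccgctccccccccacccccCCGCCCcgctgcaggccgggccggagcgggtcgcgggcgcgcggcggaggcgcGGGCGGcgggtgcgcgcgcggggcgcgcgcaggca
Rxra start 2: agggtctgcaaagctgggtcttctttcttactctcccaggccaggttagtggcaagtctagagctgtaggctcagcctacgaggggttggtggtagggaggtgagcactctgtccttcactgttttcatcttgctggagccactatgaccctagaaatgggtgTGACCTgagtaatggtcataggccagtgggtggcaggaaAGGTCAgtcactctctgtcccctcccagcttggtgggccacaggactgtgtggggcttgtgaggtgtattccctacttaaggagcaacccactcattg

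The first Pparg window was 80.3% G and C, the first Rxra window 83.0% and the Ppard window 68.3%, against a median of 52.7% over 32851 mouse promoter windows of the same length. The second Pparg window, at 62.7%, held 2 GC boxes, and the third, at 40.3%, held none of the motifs. The Ppard window held 3 GC boxes and no hexamer, and the first Rxra window 4 GC boxes and no hexamer. The second Rxra window held 2 hexamers, starting 87 and 48 bases before the start, and the first and second Pparg windows held 1 each, starting 28 and 9 bases before it. Over all 32851 windows, 16.3% held a hexamer and 35.7% a GC box. The full PPAR element DR1, a pair of these hexamers in tandem with a single base between them, searched on both strands with at most 1 mismatch, was in 0.554% of all windows and in none of the windows of the 7 members that had an entry. A full element without a mismatch contains the hexamer. Pparg is known to use alternative promoters, one of them mostly in adipocytes, and the counts per gene do not separate them.

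Depth was 25844958 to 37282772 counts per library. Prkce was at 2.01 to 4.44 CPM (counts scaled to the library total) in the 6 WT libraries and 0.950 to 1.78 CPM in the 6 meKO libraries (mean 3.08 ± 1.03 against 1.37 ± 0.347, SD, n = 6; exact two-sided permutation test, p = 0.00216), so some transcript was left in meKO. All 8 macrophage markers were present, Adgre1 at 513 to 697 CPM and Cd68 at 2540 to 3660 CPM. Lyz2, a lysozyme gene, was lower in every meKO than in every WT library, at 30480 to 53840 CPM in WT, 16290 to 18870 CPM in meKO HFD and 20310 and 21310 CPM in meKO chow replicates 1 and 3, but the genotypes were not called different on chow (edgeR, adjusted p = 0.506) or HFD (edgeR, adjusted p = 0.999). meKO chow replicate 2 stood apart with 69.3 CPM of Lyz2. It entered the spread that all groups share in the fit, so the lack of a call does not show like levels of Lyz2 in the genotypes. Leaving that library out did not change which members were called in any of the 7 comparisons. WT chow replicates 1 and 2 stood apart from the other libraries along transcript length: a gene's log2 level in the library, relative to its mean over the 12, went with the length of its transcript (Spearman's rho across genes 0.632 and 0.673). In WT chow replicate 3 rho was -0.0517, and in the other 9 it lay between -0.463 and 0.143. Since the 5 coregulator transcripts run from 7329 to 9037 bases, long for this table, differences are given as counted and after a correction that removes each library's trend with transcript length and GC content.

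CPM values are TMM-scaled (normalised between libraries by edgeR), and a gene was called at an edgeR quasi-likelihood p, Benjamini-Hochberg adjusted over all 12339 genes, under 0.05. Set against the longest annotated transcript, Pparg was the most abundant of the 9 at a mean level of 59.4 CPM per kb over the 12 libraries. Ncoa3 (12.4 CPM per kb), Rxra (10.2) and Rxrb (10.01) followed, then Ncor1 (5.25), Ncoa2 (3.05), Med1 (2.76), Ncoa1 (2.49) and Ppard (2.39). The lowest Pparg library, at 39.5 CPM per kb, lay above the highest library of every other member, 19.0 CPM per kb for Ncoa3. Every other pair of neighbours in this order had overlapping ranges over the libraries. Ppard was the least sampled, with 134 to 400 counts per library.

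**Figure D1:**
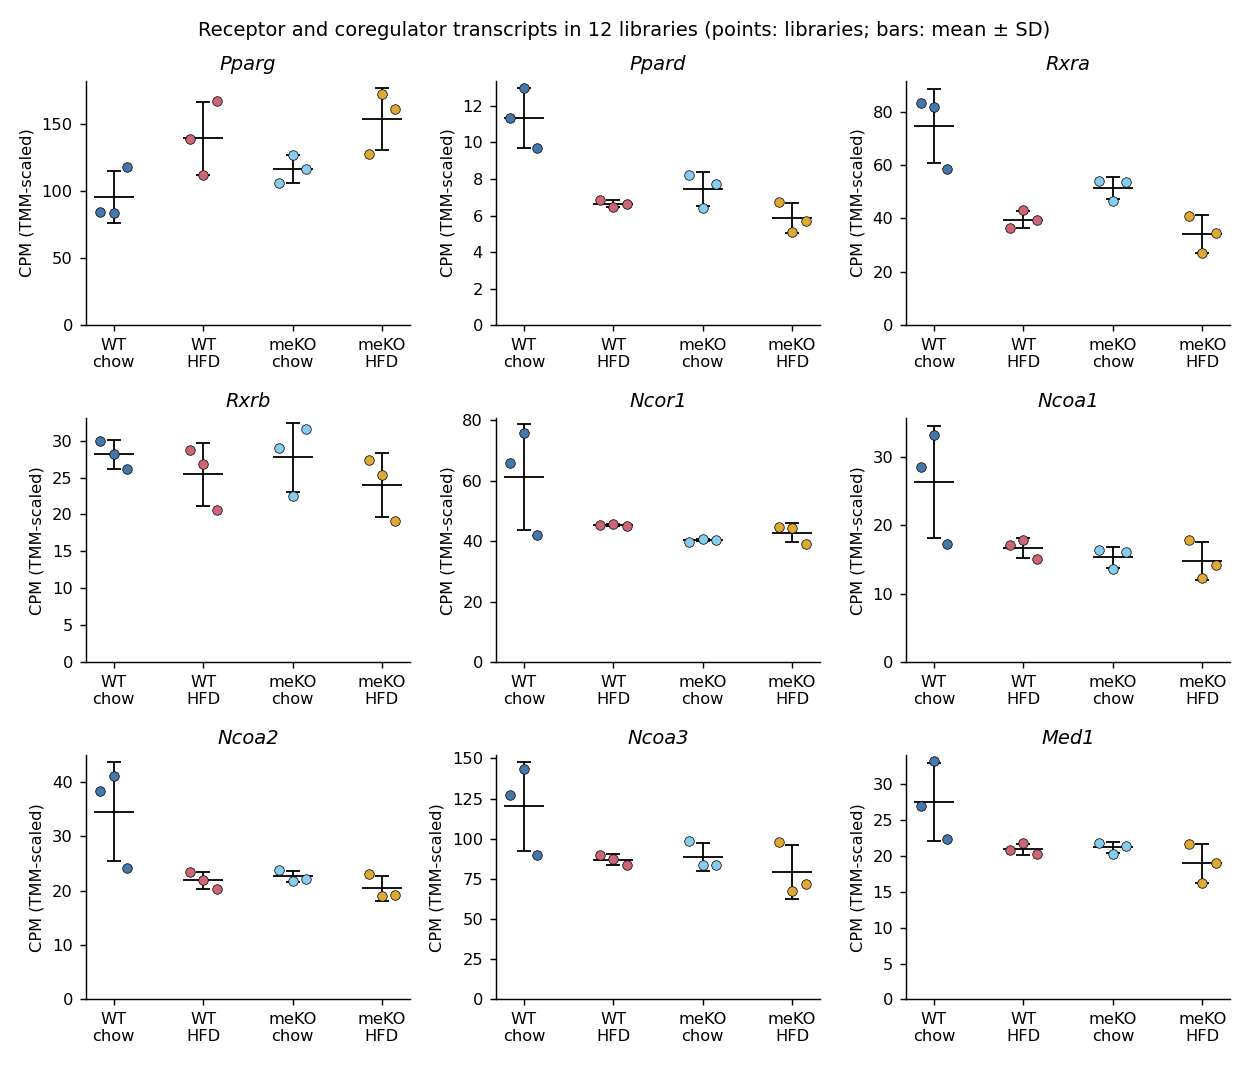
TMM-scaled CPM (y axis, linear, from 0) of each of the 9 genes in the 4 groups (x axis). Points are libraries, the long bar is the group mean and the whiskers are ± SD (n = 3). Rxra was at 46.6 CPM or more in every chow library and at 43.0 CPM or less in every HFD library, and the coregulators were highest in 2 of the 3 WT chow libraries.

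The receptor genes called for diet averaged over the genotypes went in opposite directions, and none was called within meKO alone. The averaged values of Ppard and Pparg without WT chow replicates 1 and 2 are given with each gene below. Averaged over the genotypes, Rxra fell by 0.75 on the log2 scale and Ppard by 0.56, Pparg rose by 0.47, and Rxrb did not pass. Of the 9 genes 4 were called, 1 higher and 3 lower with Ncoa2, while 30.2% of all genes tested were called in this comparison, 14.9% higher and 15.3% lower. After the length and GC correction 3 of the 9 remained, Pparg, Ppard and Rxra, beside 22.8% of all genes. The count of 4 in 9 is to be read against that share, and the values of the single genes follow.

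Rxra is among the retinoid X receptors that partner PPARs and liver X receptors. On chow it was at 83.2, 81.9 and 58.6 CPM in WT replicates 1 to 3, and at 54.2, 46.6 and 53.5 CPM in meKO. On HFD it was at 36.4, 43.0 and 39.2 CPM in WT and at 41.1, 26.9 and 34.6 CPM in meKO. All 6 chow libraries lay above all 6 HFD libraries, which 2.77% of all genes showed in this direction. The difference averaged over genotypes was -0.75 ± 0.12 (log2, SE; edgeR, adjusted p = 0.00312), a fold of 0.594, and ranked 60 among 12339 genes by p. After the length and GC correction it was -0.50 ± 0.06 (edgeR, adjusted p = 8.29e-04). This call held in all 23 alternatives computed, with adjusted p from 2.27e-07 to 0.0412, the latter without WT chow replicates 1 and 2 together, where Rxra was the only member called. Within WT the difference was -0.91 ± 0.16 (edgeR, adjusted p = 0.00853), while within meKO it was -0.59 ± 0.16 (edgeR, adjusted p = 0.172). The interaction of 0.33 ± 0.23 between these values did not pass (edgeR, adjusted p = 0.812), so a difference between the genotypes in this response was not shown.

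Ppard, the broadly expressed PPAR isotype, was at 11.3, 13.0 and 9.72 CPM in WT chow and at 6.86, 6.47 and 6.62 CPM in WT HFD. In meKO it was at 8.21, 6.43 and 7.74 CPM on chow and at 6.72, 5.11 and 5.72 CPM on HFD. The WT groups did not overlap, and in meKO 1 chow library lay below the highest HFD library. The difference averaged over genotypes was -0.56 ± 0.11 (edgeR, adjusted p = 0.00670) and -0.39 ± 0.08 after the correction (edgeR, adjusted p = 0.00826). In WT alone it was -0.77 ± 0.16 (edgeR, adjusted p = 0.0123), or -0.55 ± 0.12 corrected (edgeR, adjusted p = 0.0140), and in meKO -0.35 ± 0.16 (edgeR, adjusted p = 0.305). Without WT chow replicates 1 and 2 together the averaged value was -0.45 (edgeR, adjusted p = 0.0874).

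Pparg, the PPAR isotype tied to lipid storage, moved the other way. It stood at 84.2, 83.9 and 118 CPM in WT chow and at 139, 112 and 167 CPM in WT HFD. In meKO these levels were 106, 126 and 117 CPM without and 127, 172 and 161 CPM with the HFD. The WT groups overlapped by 1 library each, and the meKO groups lay next to each other without overlap. The difference averaged over genotypes was 0.47 ± 0.12 (edgeR, adjusted p = 0.0138), a fold of 1.39, and 0.39 ± 0.10 after the correction (edgeR, adjusted p = 0.0141). WT alone gave 0.55 ± 0.17 (edgeR, adjusted p = 0.0377), and meKO alone 0.40 ± 0.17 (edgeR, adjusted p = 0.291). The WT call was lost after the length and GC correction (0.42, edgeR, adjusted p = 0.0578), and without WT chow replicates 1 and 2 together the averaged value was 0.32 (edgeR, adjusted p = 0.183).

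Rxrb, the second retinoid X receptor measured, was at 29.99, 28.2 and 26.2 CPM in WT chow, at 28.7, 26.9 and 20.6 CPM in WT HFD, at 29.0, 22.6 and 31.6 CPM in meKO chow and at 27.4, 25.3 and 19.1 CPM in meKO HFD. All groups overlapped. Its difference averaged over genotypes was -0.18 ± 0.12 (edgeR, adjusted p = 0.261), and it was called in none of the comparisons. Rxrg, the third retinoid X receptor gene, and Ppara were not listed among the 12339 genes.

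The balance of these receptors within a library is given as a description, from counts per kb. Pparg per Rxra and Rxrb together was 1.40, 1.44 and 2.53 in WT chow and 3.56, 2.78 and 4.95 in WT HFD. In meKO it was 2.26, 3.29 and 2.39 on chow and 3.19, 5.37 and 5.29 on HFD. The ratio was thus higher in every WT HFD library than in every WT chow library, while the highest meKO chow and the lowest meKO HFD library overlapped. None of the ratios given here carries the length and GC correction. In WT chow replicates 1 and 2 the library's trend was -0.15 and -0.18 (log2) for Pparg. For the longer Rxra it was 0.38 in both, and its part in the ratios was not tested. Ppard per Pparg averaged 0.0803 ± 0.0241 in WT chow, 0.0317 ± 0.00585 in WT HFD, 0.0421 ± 0.00869 in meKO chow and 0.0255 ± 0.00777 in meKO HFD (SD, n = 3), so transcripts of Ppard were a small fraction of those of Pparg everywhere. Rxrb per Rxra averaged 0.717 ± 0.103 in WT chow and 1.21 ± 0.249 in WT HFD. In meKO the ratio was 1.002 ± 0.0989 on chow and 1.35 ± 0.374 on HFD, and meKO groups overlapped.

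**Figure D2:**
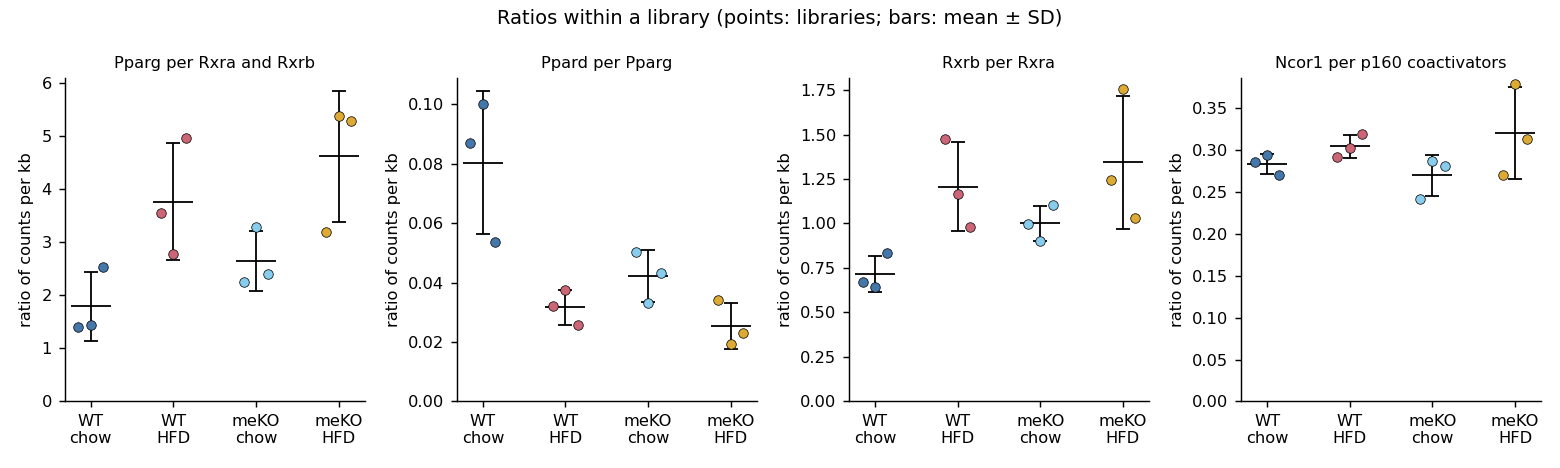
Ratios of counts per kb within each library (y axis, linear, from 0) in the 4 groups (x axis); points are libraries, bars the mean ± SD (n = 3). Pparg per retinoid X receptor was 2.53 or less in WT chow and 2.78 or more in WT HFD, and Ncor1 per p160 coactivators had group means from 0.270 to 0.321. The ratios carry no length and GC correction.

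In bulk samples fewer cells of a type and less RNA per cell cannot be told apart, and summed markers of several other cell types differed between the diets. The 10 mesothelial and fibroblast markers, all measured, summed to 52.3 to 92.8 CPM in WT chow and 94.2 to 140 CPM in WT HFD. In meKO they summed to 52.1 to 97.0 CPM on chow and 113 to 141 CPM on HFD. The 7 measured of 8 B cell markers summed to 113 to 173 CPM in WT chow against 54.1 to 90.3 CPM in WT HFD, and to 79.3 to 169 CPM against 58.1 to 117 CPM in meKO, where the diets overlapped. Neutrophil markers (6 of 8 measured) summed to 156 to 199.9 CPM in WT chow and 140 to 149.7 CPM in WT HFD. Dendritic cell markers (8 of 8) summed to 36.0 to 53.9 CPM and 21.2 to 30.03 CPM in these groups, and eosinophil markers (3 of 7) to 19.9 to 28 CPM and 14.1 to 19.0 CPM. These 3 sums overlapped between the diets in meKO, whereas those of T and NK cells (7 of 8 markers) overlapped in WT and were 12.2 to 13.7 CPM in meKO chow against 17.4 to 21.1 CPM in meKO HFD. Of 9 adipocyte markers only Lipe was listed, at 8.81 to 13.6 CPM over all libraries, and Adipoq, Plin1 and Cidec, defining genes of fat cells, were not listed. Lipe was at 11.62 to 13.58 CPM in meKO chow and 8.811 to 11.15 CPM in meKO HFD. In WT its diets overlapped, at 11.14 to 13.29 CPM on chow and 9.775 to 12.14 CPM on HFD. The part of RNA from these other cells in the receptor values was not tested.

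The coregulators were highest in 2 libraries of WT chow. Ncor1, the scaffold of the HDAC3 corepressor complex, was at 65.9 and 75.9 CPM in WT chow replicates 1 and 2 and at 42.0 CPM in replicate 3. It was at 45.4, 45.7 and 45.1 CPM in WT HFD, at 39.8, 40.6 and 40.5 CPM in meKO chow and at 44.7, 44.5 and 39.1 CPM in meKO HFD. Outside the first 2 libraries the gene thus stayed between 39.1 and 45.7 CPM. In these 2 its deviation from the 12-library mean was 0.51 and 0.71 (log2), where the library's trend with length and GC content gave 0.44 and 0.53 for a transcript like it. The diet difference in WT was -0.43 ± 0.16 as counted (edgeR, adjusted p = 0.0701) and -0.02 ± 0.08 after the correction.

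The p160 coactivators recruit histone acetyltransferases and methyltransferases to liganded receptors. Ncoa1 (SRC-1) was at 28.6, 33.2 and 17.3 CPM in WT chow and at 17.2, 17.8 and 15.1 CPM in WT HFD. Ncoa2 (GRIP1) was at 38.4, 41.1 and 24.1 CPM in WT chow and at 23.5, 21.97 and 20.4 CPM in WT HFD. In both, WT chow replicate 3 lay close to the HFD libraries. In meKO, Ncoa1 was at 16.4, 13.6 and 16.1 CPM on chow and 17.8, 12.3 and 14.1 CPM on HFD, and Ncoa2 at 23.9, 21.8 and 22.2 CPM on chow and 23.1, 19.1 and 19.1 CPM on HFD, so that both overlapped between the diets. Ncoa1 fell by 0.66 ± 0.20 in WT on HFD (edgeR, adjusted p = 0.0378) and Ncoa2 by 0.66 ± 0.17 (edgeR, adjusted p = 0.0219). After the correction the values were -0.28 ± 0.12 for Ncoa1 (edgeR, adjusted p = 0.133) and -0.27 ± 0.08 for Ncoa2 (edgeR, adjusted p = 0.0503), and neither passed. Averaged over genotypes Ncoa2 fell by 0.40 ± 0.12 (edgeR, adjusted p = 0.0243). That call was lost after the correction (-0.17, edgeR, adjusted p = 0.0557) and without any 1 of WT chow replicates 1 and 2, WT HFD replicate 3, meKO chow replicate 3 and meKO HFD replicates 2 and 3, with values from -0.41 to -0.33.

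Ncoa3 (SRC-3), the most abundant of the 3 per kb, was at 128, 143 and 89.6 CPM in WT chow and at 90.2, 87.4 and 83.3 CPM in WT HFD, groups that overlapped. Its diet difference in WT was -0.47 ± 0.17 (edgeR, adjusted p = 0.0618) and -0.06 ± 0.10 corrected. Med1, the Mediator subunit that contacts nuclear receptors, was at 27.0, 33.2 and 22.3 CPM in WT chow and at 20.9, 21.8 and 20.2 CPM in WT HFD. Its groups did not overlap, with a difference of -0.39 ± 0.14 (edgeR, adjusted p = 0.0652) and -0.05 ± 0.09 corrected. The meKO libraries of Ncoa3 had 98.6, 83.5 and 83.4 CPM on chow and 98.2, 67.6 and 72.0 CPM on HFD, and those of Med1 21.9, 20.4 and 21.5 CPM on chow and 21.7, 16.2 and 19.0 CPM on HFD. In meKO the diet differences of the 5 coregulators lay between -0.16 and 0.09 on the log2 scale and none passed.

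The balance among the coregulators is given as a description, from counts per kb. Ncoa3 made up 67.3% ± 1.56 of the p160 counts per kb in WT chow, 70.0% ± 0.781 in WT HFD, 70.7% ± 1.29 in meKO chow and 69.8% ± 1.26 in meKO HFD (SD, n = 3). In this share WT chow replicates 1 and 2 had 66.3% and 66.6%, and replicate 3, at 69.1%, lay just below the lowest WT HFD library at 69.4%. Ncor1 per p160 coactivators averaged 0.283 ± 0.0121 in WT chow, 0.305 ± 0.0136 in WT HFD, 0.270 ± 0.0248 in meKO chow and 0.321 ± 0.0546 in meKO HFD. Single libraries ran from 0.242 to 0.379, and the groups overlapped, except that all WT HFD libraries lay above all meKO chow libraries. Med1 per p160 coactivators was between 0.132 and 0.171 in all 12 libraries.

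**Figure D3:**
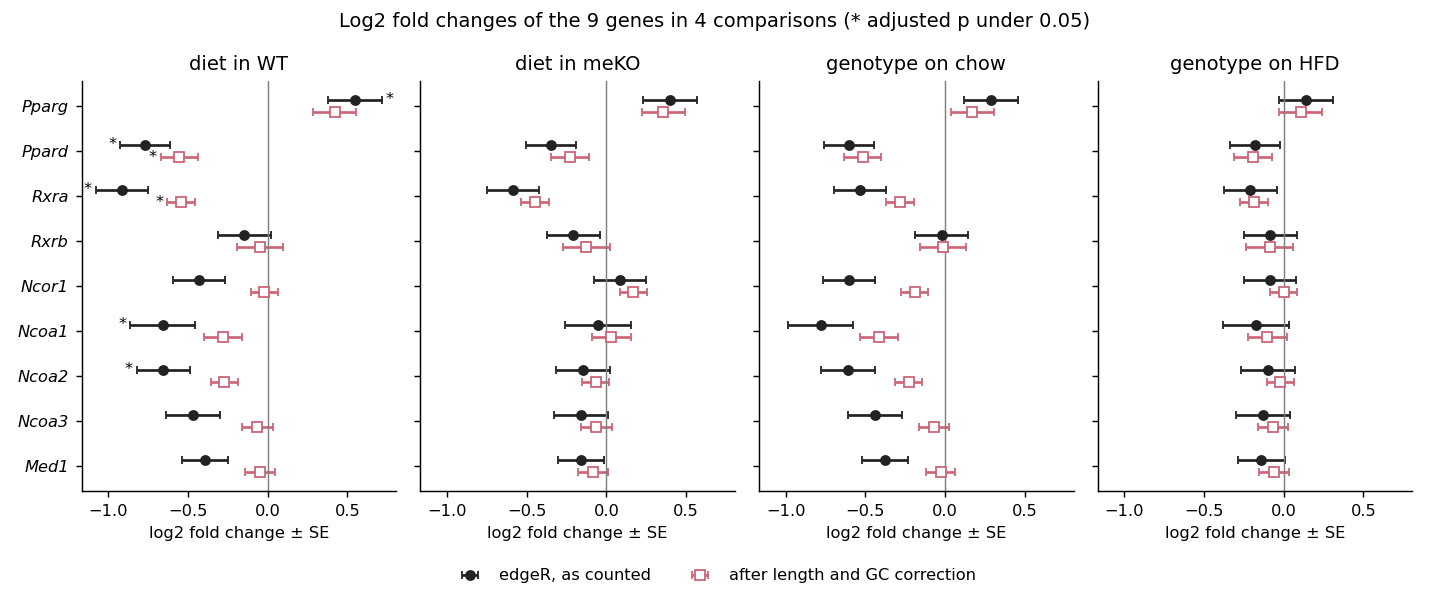
Log2 fold change ± SE (x axis) of the 9 genes (rows) in 4 comparisons, as counted (filled circles) and after the length and GC correction (open squares); diet is HFD over chow and genotype is meKO over WT. Stars mark an edgeR adjusted p under 0.05, reached by 5 genes as counted and 2 after the correction, all for diet in WT.

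In WT alone, 5 of the 9 genes were called for diet, Pparg higher and Ppard, Rxra, Ncoa1 and Ncoa2 lower, while 21.3% of all genes tested were called, 9.50% higher and 11.8% lower. After the correction Ppard and Rxra remained, both lower, beside 4.98% of all genes called higher and 7.04% lower. For 4 of the 9, Ppard, Rxra, Ncoa2 and Med1, all WT HFD libraries lay below all WT chow libraries, which 19.9% of all genes showed. The count rests on single libraries: none of the 9 was called without WT chow replicate 1 or without WT HFD replicate 3, where 1.05% and 0.778% of all genes were called. Rxra alone was called without WT chow replicate 2 (2.59% of all genes), Ppard and Rxra without WT HFD replicate 1 (3.73%), and 8 without WT chow replicate 3 (39.9%). The members' count thus fell and rose with that of all genes. Without WT chow replicates 1 and 2 together none was called, beside 0.122% of all genes, and Rxra had a value of -0.57 (edgeR, adjusted p = 0.386) against -0.91 in the full set. With all genes split into 5 bins by transcript length, the median diet difference in WT ran from 0.36 in the bin of the shortest to -0.38 in the bin of the longest, where 29.3% were called lower. All 5 coregulators belong to that longest bin, which starts at 4962 bases.

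**Figure D4:**
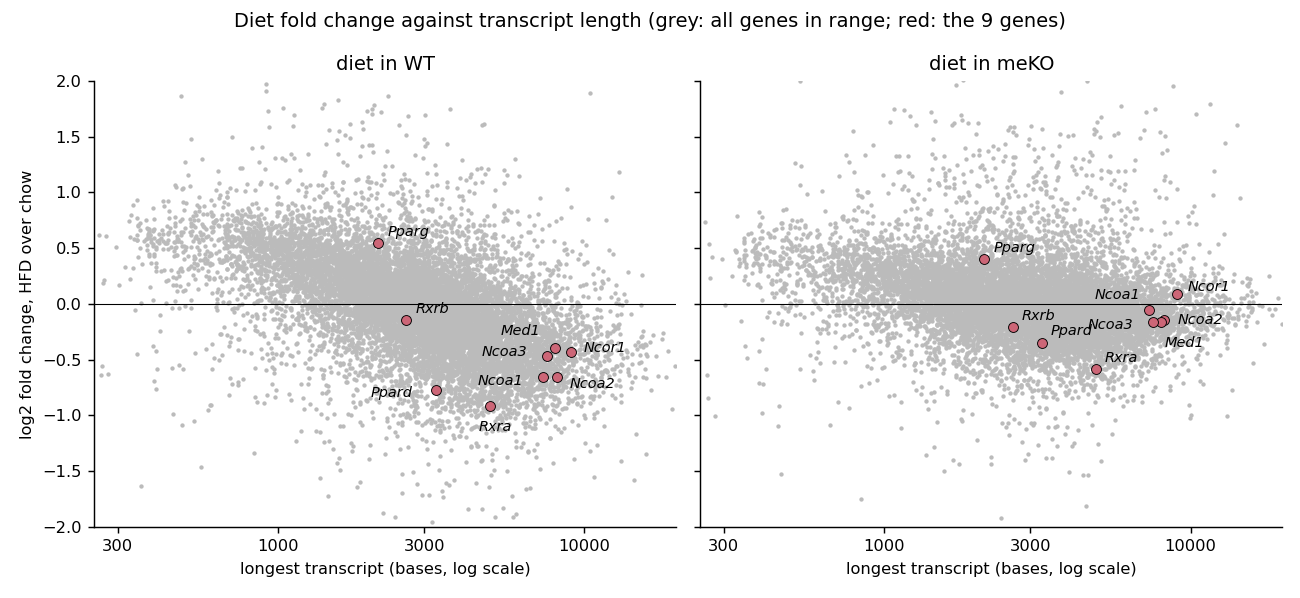
Log2 fold change of HFD over chow (y axis) against the length of the longest transcript (x axis, bases, log scale) in WT (left) and meKO (right); grey points are all genes within the axes and red points the 9 genes. In WT the coregulators, at 7329 to 9037 bases, lay among other long genes, while Pparg at 2125 bases was at 0.55 and Rxra at 4905 bases was at -0.91.

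In meKO none of the 9 genes was called for diet (edgeR, adjusted p from 0.172 to 0.917), where 0.105% of all genes were called. At an unadjusted p under 0.05 there were 3, Rxra, Pparg and Ppard, against 15.9% of all genes. The meKO HFD libraries lay wholly above the chow libraries for Pparg and wholly below them for Rxra, and 19.7% of all genes were separated in either direction. DESeq2 and voom with library quality weights each called 1 member, Rxra (adjusted p = 0.0339 with the weights), beside 1.84% and 3.23% of all genes. The interaction of genotype and diet was called for none of the 9 genes (edgeR, smallest adjusted p = 0.797), and for 0.0162% of all genes. At an unadjusted p under 0.05 there were 2, Ncor1 and Ncoa2, against 6.13% of all genes. Without WT chow replicate 3, 1 member was called for it, Ncor1, beside 0.454% of all genes. The WT and meKO diet responses were therefore not shown to differ for these genes.

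Between genotypes on chow, 7 of the 9 genes were lower in meKO on the log2 scale by 0.37 or more, and none was called. The values were -0.60 ± 0.15 for Ppard (edgeR, adjusted p = 0.103), -0.54 ± 0.16 for Rxra (edgeR, adjusted p = 0.126), -0.60 ± 0.16 for Ncor1 (edgeR, adjusted p = 0.105) and -0.78 ± 0.20 for Ncoa1 (edgeR, adjusted p = 0.103). Ncoa2, Ncoa3 and Med1 had -0.61, -0.44 and -0.37, Pparg had 0.29 and Rxrb -0.02. In this comparison 0.0810% of all genes were called and 19.8% had an unadjusted p under 0.05, which 7 of the 9 members had. For 6 members all meKO chow libraries lay below all WT chow libraries, as did 8.28% of all genes. After the correction the coregulator values were between -0.41 and -0.03, Ppard was at -0.52 (edgeR, adjusted p = 0.129) and Rxra at -0.28 (edgeR, adjusted p = 0.200).

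The calls on chow depended on the tool and on 1 library. DESeq2 called 5 members and 5.54% of the 10664 genes to which it gave an adjusted p. limma-voom called no member, and voom with library quality weights 8 members and 32.8% of all genes. Without WT chow replicate 3, edgeR called 7 members and 20.6% of all genes. Without WT chow replicates 1 and 2 together the 7 values shrank to between -0.38 for Ppard and -0.02 for Ncoa3, and none passed. On HFD no member was called or had an unadjusted p under 0.05 (edgeR, all adjusted p = 0.999), and DESeq2 and both voom fits called none. The values on HFD ran from -0.21 for Rxra to 0.14 for Pparg, 0.0810% of all genes were called, and Ncor1 alone had meKO libraries wholly below the WT libraries, as had 4.85% of all genes. In this comparison 4.56% of all genes had an unadjusted p under 0.05. Averaged over diets none of the 9 was called (edgeR, smallest adjusted p = 0.149, for Ppard), against 0.170% of all genes. There 7 had an unadjusted p under 0.05 against 17.7% of all genes. DESeq2 called 1 member and 2.97% of all genes, edgeR without WT chow replicate 3 called 7 members and 11.3%, and voom with quality weights 8 members and 31.1%.

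Other genes of the pathway were read from lists, described by counts and medians. Their counts for diet in WT stand beside 9.50% of all genes called higher and 11.8% lower, or 4.98% and 7.04% after the length and GC correction. Of the receptors that pair with retinoid X receptors 10 of 15 were listed, and in WT 1 was called for diet. This was Nr1h3, the liver X receptor gene of macrophages and itself a PPARγ target, at 63.6 ± 4.301 CPM in WT chow and 96.0 ± 11.7 CPM in WT HFD (SD, n = 3). It rose by 0.59 ± 0.12 (edgeR, adjusted p = 0.0111) and by 0.52 after the correction (edgeR, adjusted p = 0.00819), thus in the direction of Pparg and against Rxra. In meKO its value was 0.44 (edgeR, adjusted p = 0.147). The next partners by p in WT were not called: the thyroid hormone receptor genes Thrb and Thra had -0.80 and -0.40, and the retinoic acid receptor gene Rarb had 0.53.

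Of 16 corepressor complex genes, 1 was called higher and 5 lower for diet in WT, with a median of -0.40 against -0.03 over all genes. Rcor1, a scaffold of the LSD1 corepressor complex, went from 18.4 ± 5.85 to 9.44 ± 1.17 CPM (log2 difference -0.97, edgeR, adjusted p = 0.0166). Tbl1x and Tbl1xr1, exchange factors of the NCOR1 complex, fell by 0.66 (edgeR, adjusted p = 0.0241) and 0.45 (edgeR, adjusted p = 0.0269), and Sin3a, the scaffold of another HDAC complex, by 0.55 (edgeR, adjusted p = 0.0260). After the correction 1 was called higher and 3 lower, with a median of -0.19. Rcor1, at -0.66 (edgeR, adjusted p = 0.0191), and Tbl1x, at -0.44 (edgeR, adjusted p = 0.0463), were still called. Tbl1xr1, at -0.19 (edgeR, adjusted p = 0.122), and Sin3a, at -0.30 (edgeR, adjusted p = 0.0664), were not.

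Of 31 further coactivators, 15 were called lower and none higher in WT, with a median of -0.55, where 11.8% of all genes and 29.3% of those in the bin of the longest transcripts were called lower. Cited2, a CBP and p300 binding protein, went from 67.3 ± 6.46 to 38.8 ± 2.97 CPM (log2 difference -0.79, edgeR, adjusted p = 0.0123). Carm1, the arginine methyltransferase recruited by p160 coactivators, went from 11.1 ± 2.02 to 5.67 ± 0.772 CPM (-0.97, edgeR, adjusted p = 0.0132). Smarca2, a SWI/SNF ATPase, and Ep300, a histone acetyltransferase, both had -0.75 (edgeR, adjusted p = 0.0168 and 0.0185). After the correction 6 were called lower, beside 7.04% of all genes, and the median was -0.18. In WT, corrected, Cited2 was at -0.80 (edgeR, adjusted p = 0.00996), Carm1 at -0.77 (edgeR, adjusted p = 0.0112) and Ep300 at -0.29 (edgeR, adjusted p = 0.0403), while Smarca2, at -0.41, no longer passed (edgeR, adjusted p = 0.0715).

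The 32 other Mediator genes split in both directions in WT, 8 higher and 4 lower, with a median of 0.04. Med12, a kinase module subunit, went from 32.0 ± 6.30 to 17.1 ± 1.42 CPM (-0.91, edgeR, adjusted p = 0.00727). Its relative Med12l fell by 1.27 (edgeR, adjusted p = 0.0214). Med12l was low, at 1.82 ± 0.322 CPM in WT chow and 0.750 ± 0.334 CPM in WT HFD (SD, n = 3). The small subunit genes Med21 and Med11 rose by 0.82 and 0.67 (edgeR, adjusted p = 0.0130 and 0.0178). After the correction 1 was called higher and 3 lower. Med12 was then at -0.49 (edgeR, adjusted p = 0.0105) and Med11 at 0.30 (edgeR, adjusted p = 0.0238). Med21, at 0.24 (edgeR, adjusted p = 0.118), and Med12l, at -0.91 (edgeR, adjusted p = 0.0690), no longer passed.

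Of 32 PPAR target genes 28 were listed, and 9 were called higher and 2 lower for diet in WT, with a median of 0.20. The median over all genes was -0.03. Olr1, an oxidised LDL receptor, was at 2.49 ± 0.346 CPM in WT chow and 5.30 ± 1.39 CPM in WT HFD, a rise of 1.09 ± 0.21 (edgeR, adjusted p = 0.0111). Plin2, a lipid droplet coat protein, was at 2148 ± 206 and 2933 ± 238 CPM, a rise of 0.45 ± 0.11 (edgeR, adjusted p = 0.0179). Mrc1, the mannose receptor and a marker of alternative activation, was at 515 ± 142 and 283 ± 25.2 CPM, a fall of 0.86 ± 0.16 on the log2 scale (edgeR, adjusted p = 0.0106). The other gene called lower was Mgll, a lipase that cleaves monoacylglycerols, at -1.12 (edgeR, adjusted p = 0.0222). Tgm2, a transglutaminase also used as a marker of alternative activation, rose by 0.71 (edgeR, adjusted p = 0.0340), and Arg1, another such marker, had 0.69 and did not pass (edgeR, adjusted p = 0.0718). Genes of lipid handling and of alternative activation were thus each found in both directions. Mgll, Tgm2 and Arg1 are named here after their values were seen.

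After the correction 5 targets were called higher and 2 lower in WT. Olr1 stayed at 1.08 (edgeR, adjusted p = 0.00934) and Mrc1 at -0.66 (edgeR, adjusted p = 0.0102), while Plin2, at 0.28 (edgeR, adjusted p = 0.0983), and Mgll, at -0.89 (edgeR, adjusted p = 0.125), no longer passed. Tgm2 was at 0.96 (edgeR, adjusted p = 0.00776). In meKO none of the 28 was called for diet, and 8 had an unadjusted p under 0.05 (edgeR), against 15.9% of all genes. The values in meKO were 0.75 for Olr1, 0.37 for Plin2 and -0.52 for Mrc1. Averaged over genotypes 10 were called higher and 4 lower, or 8 and 2 after the correction, Olr1, Plin2, Nr1h3 and Mrc1 in both. Of all genes 14.9% were called higher and 15.3% lower there, or 10.9% and 11.8% after the correction. In the 28 promoter windows of 24 of the 32 target genes, 9 genes had a hexamer and none the full element. Of all windows 16.3% held a hexamer and 0.554% the full element. These shares are per window and not per gene, so the counts are a description only.

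**Figure D5:**
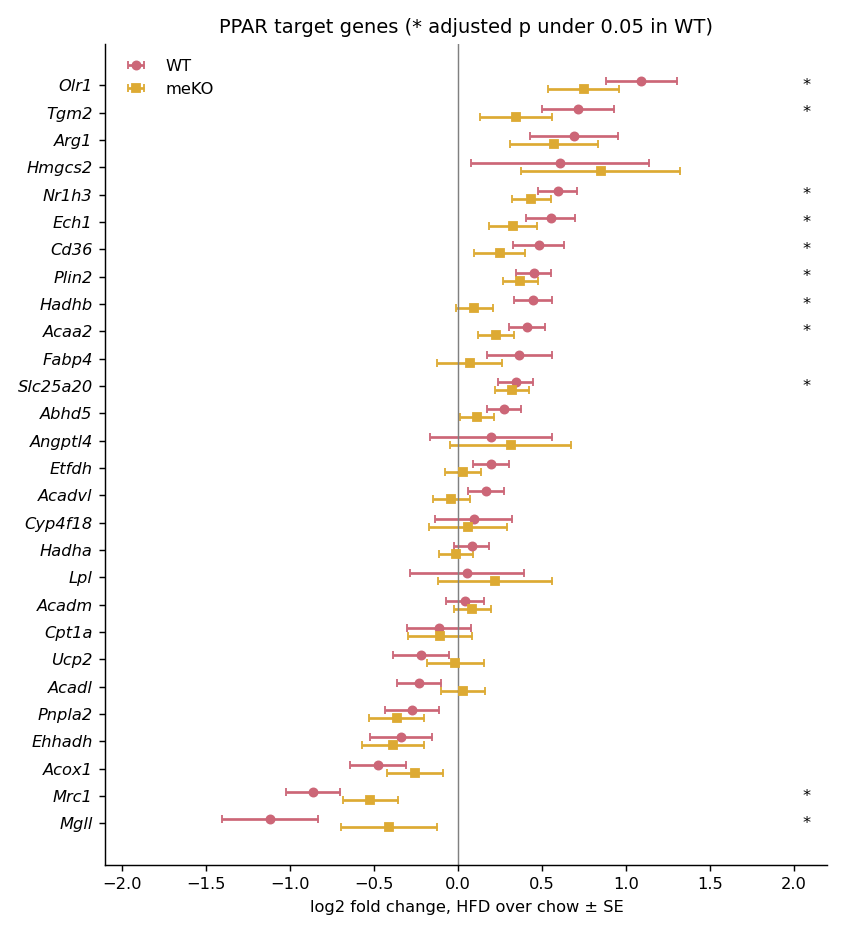
Log2 fold change of HFD over chow ± SE (x axis) for the 28 listed PPAR target genes (rows, ordered by the value in WT), circles for WT and squares for meKO. Stars mark the 11 genes with an edgeR adjusted p under 0.05 in WT, 9 to the right and 2 to the left of 0; none reached it in meKO.

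Of 21 genes that carry or make PPAR and retinoid X receptor ligands 15 were listed, and 3 were called higher and 3 lower in WT. Aldh1a1, which makes retinoic acid, was at 1.57 ± 0.413 CPM in WT chow and 3.70 ± 0.506 CPM in WT HFD (log2 difference 1.23, edgeR, adjusted p = 0.0441), and Fabp3, a fatty acid carrier, at 4.06 ± 0.961 and 10.7 ± 2.45 CPM (1.40, edgeR, adjusted p = 0.0213). Alox5, a lipoxygenase, fell by 0.93 (edgeR, adjusted p = 0.0301). These transcripts are low, and the summed mesothelial and fibroblast markers were also higher in every HFD library than in the chow libraries of the same genotype; their part in these values was not tested. After the correction 1 was called higher and 3 lower in WT. Fabp3, at 1.01 (edgeR, adjusted p = 0.0454), and Alox5, at -0.86 (edgeR, adjusted p = 0.0482), were still called, and Aldh1a1, at 1.07, was not (edgeR, adjusted p = 0.112). Averaged over genotypes after the correction, Aldh1a1 was at 1.20 (edgeR, adjusted p = 0.0156).

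Of 24 enzymes and chaperones that act on the receptors, 2 were called higher and none lower in WT, a share below that of all genes, of which 21.3% were called. Hsp90aa1, an HSP90 chaperone, was at 89.2 ± 4.18 CPM in WT chow and 138 ± 31.4 CPM in WT HFD (0.63, edgeR, adjusted p = 0.0217), and averaged over genotypes after the correction it was at 0.61 (edgeR, adjusted p = 0.00325). In these 7 lists edgeR called no gene for genotype on either diet, for diet in meKO or for the interaction. For genotype on chow, 18 of the 31 further coactivators, 8 of the 32 Mediator genes and 6 of the 28 PPAR targets had an unadjusted p under 0.05. So had 4 of 16 corepressor complex genes, 4 of 10 partner receptors, 2 of 15 ligand genes and 0 of 24 enzymes and chaperones. Over all genes the share was 19.8%. The coactivator median on chow was -0.39 as counted and -0.13 after the correction. On HFD 4 PPAR targets and no gene of the other lists were under 0.05, against 4.56% of all genes.

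The genes whose profile over the 12 libraries was most like that of a member were ranked by the root mean square difference of centred log2 CPM, as a description; library and depth are shared by all points. For Rxra these were Pip5k1c (0.101), Fyb1 (0.106) and Taok3 (0.107). For Ppard they were Smg6 (0.0687), Phf21a (0.0866) and Arid1b (0.10), and for Pparg Snu13 (0.0782), Anapc15 (0.0851) and Pfdn6 (0.0856). Rxrb was nearest to Lztr1 (0.110). Ncor1 was nearest to Nin (0.0617), Ncoa1 to Ankrd11 (0.0897), Ncoa2 to Kansl1 (0.0558), Ncoa3 to Etv3 (0.0531) and Med1 to 5031439G07Rik (0.0732), whose transcripts run from 5309 to 9919 bases. Among the members the closest pairs were Ncoa3 with Med1 (0.0910) and Ncoa2 with Ncoa3 (0.101), and the farthest was Pparg with Rxra (0.780).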

How the data were processed

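Per the file headers, the authors deposited 1 table of unnormalised read counts, 1 row per gene with its Entrez identifier and symbol. Per the submitters' processing notes the build was mm10 and DESeq2 was used; aligner, counter and strand setting are not given in the sources used here, so reads of overlapping genes may be shared. Per the labels' protocols, RNA was extracted with Trizol and libraries made with TruSeq. Rows without a symbol (186, 0.440% of the counts) stayed in the fit.

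Counts were fitted with edgeR 4.0.16 in R 4.3.3 (TMM factors, filterByExpr, which kept all 12339 genes, robust quasi-likelihood F test, 4 group means over 12 libraries), with Benjamini-Hochberg adjustment over all genes. The fit was also run on simulated data in which the spread between replicates was capped, so that run does not show how it performs on these libraries. An exact permutation test of 1 gene cannot go below 0.1 at 3 libraries against 3. The length and GC correction used natural splines (4 degrees of freedom each) on the longest GENCODE M21 basic transcript, known for 97.6% of genes, as offsets. Replicates differed by more than sampling noise in every pair. Replicate numbers follow sample order.

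All 9 members are named. From each list up to 4 genes per comparison with the smallest p are named (some are not reported here), and for each member up to 3 genes of like profile, among genes of at least 1 CPM whose SD is at least that of the member divided by 2. The GC box was added after seeing the promoters. Ncoa2 and Ncoa3 had no promoter entry. Members, lists and alternatives were chosen with earlier results of these data known. Alternatives were other scaling factors, library totals, low-count filters, DESeq2 1.42.0, limma-voom (limma 3.58.1) with and without quality weights, non-robust dispersions, the 2 groups alone, the length and GC correction, and each library left out.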

Additional observations from a re-analysis of the deposited data

How the results depend on the processing

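The direction and call of Rxra for diet averaged over genotypes held in all 23 alternatives, and those of Ppard and Pparg in 21 of 23. The number of members called moved more. For diet in WT (5 of 9) it was 8 with library totals, where the median of all genes moved to -0.12, 8 with voom quality weights, 2 once length and GC were corrected for and 3 with the 2 groups alone, where 22.2%, 52.0%, 12% and 16.7% of all genes were called. It was 0 to 8 with 1 library left out, beside 0.778% to 39.9% of all genes. Leaving out WT chow replicates 1 and 2 together, an alternative chosen after seeing the data, gave 0 with or without the correction for diet in WT and 1, Rxra, either way for diet averaged over genotypes (4 of 9). The latter was 8 with quality weights and 3 to 8 with 1 library left out. For genotype on chow (0) DESeq2 gave 5, quality weights 8 and single libraries left out 0 to 7. For genotype averaged over diets (0) these were 1, 8 and 0 to 7, for diet in meKO (0) DESeq2 and quality weights each gave 1, and for the interaction (0) leaving out a library gave 0 to 1.

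Signs changed only for values that had not passed. Without WT chow replicates 1 and 2, Pparg for genotype on chow was -0.0171 (-0.0312 with the correction) and Rxrb 0.0811 (0.0536). For diet in WT, Ncor1 was 0.113 (0.108), and Rxrb 0.0175 with the correction. For diet averaged over genotypes Ncor1 was 0.0977 (0.137), and 0.0737 with the correction alone. The interactions were 0.154 (0.135) for Pparg, -0.118 (-0.0396) for Ncoa3, -0.0251 for Rxra, -0.0295 for Ncor1, -0.00654 for Ncoa1, -0.0125 for Ncoa2 and -0.0708 for Med1. The correction alone gave -0.0352 for the interaction of Med1, 0.000204 for Ncor1 by genotype on HFD and 0.0317 for Ncoa1 by diet in meKO, which was 0.0279 with the correction and without the 2 libraries. With 1 library left out Rxrb ranged from -0.126 to 0.117 for genotype on chow, from -0.221 to 0.051 on HFD and from -0.208 to 0.0632 for the interaction, and Ncoa1 from -0.214 to 0.0597 for diet in meKO. The cause of these moves was not tested. The labels name nothing that pairs libraries across groups, so no paired analysis was made. Ppard had the fewest counts of the 9, 134 to 400 per library.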
